A study of Mus musculus with 9 samples.

Results

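The immediate early genes described here are Fos, Fosb, Jun, Junb, Egr1, Egr2, Myc, Atf3, Ier2 and Dusp1, 10 of the 29763 named genes in the expression table. They were taken by symbol, as genes known for rapid induction, but with earlier results of these data known. Their counts beside all genes are therefore descriptions and not independent tests. Expression is given as TPM, a transcript abundance normalised to transcript length and to the library total. All 10 were found, and 9 passed the filter on low values, which required 1 TPM or more in 3 or more libraries. Fosb did not pass it.

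The cells were bone marrow-derived macrophages, primary macrophages grown from mouse marrow over 7 days with 30% supernatant of L929 cells as the source of growth factor. Polyadenylated RNA was sequenced from 3 groups of 3 libraries each: wild type, Ndufa4-/- (called the Ndufa4 knockout here) and Ndufa4l3-miR-147-/- (also named Nmes1-deficient, called the Ndufa4l3-miR147 knockout here). All groups had received interferon-gamma at 40 ng/ml for 12 h, so the values compare genotypes within stimulated cells and hold no unstimulated reference. The labels name both deletions without a Cre driver and give neither strain, sex nor age, and they call the replicates technical, so the tests measure the spread between libraries and not between mice. Ndufa4 is a subunit associated with cytochrome c oxidase, complex IV of the respiratory chain, and the Ndufa4l3 gene encodes a related protein together with the microRNA miR-147.

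Immediate early genes are transcribed within minutes of a stimulus, without new protein synthesis, when MAP kinase and other pathways act on transcription factors that are already bound at their promoters. Most encode transcription factors. Fos and Jun family proteins pair to form AP-1, Egr proteins are zinc finger factors, and Myc is the growth factor-responsive activator of ribosome and metabolic genes. Their transcripts are usually short-lived, partly through AU-rich elements in the 3' untranslated region, and Dusp1 closes the loop by dephosphorylating the MAP kinases. In macrophages these genes respond to microbial ligands, growth factors, adhesion and stress.

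The members have few exons. In GENCODE M21 (GRCm38) each of the 10 had at most 4 exons in its longest coding transcript, as did 19.7% of the 10101 coding genes kept that have an annotated 3' untranslated region of at least 50 bases. Jun, Junb and Ier2 had 1 exon, as did 1.83% of those genes. Transcript lengths ran from 1522 bases for Ier2 to 4484 bases for Egr1. The pentamer ATTTA, the core of AU-rich elements, was present in the 3' untranslated region of 9 members and of 69.9% of the genes compared, and Ier2 had none. Its median density was 2.88 per kb over the members and 1.33 per kb over those genes, with 5.80 per kb in Dusp1 and 4.91 per kb in Fos. The longer element TTATTTATT, which contains that pentamer and was searched in the transcript strand, occurred in Fos and Dusp1 and in 7.94% of the genes compared. The windows of 30 bases around the most upstream copy are shown because they carry the shared feature, with the element in capitals and DNA letters for the RNA. They start at bases 645 (Fos) and 93 (Dusp1) of the 3' untranslated region.
Fos: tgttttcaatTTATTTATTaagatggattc
Dusp1: gagctggtccTTATTTATTtaacacccccc

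The promoters of the AP-1 subunits are shown because Fos, Jun and Junb rose in the Ndufa4 knockout. RefSeq windows (GRCm38.p6) were matched for Fos, Fosb, Jun, Junb, Egr2, Atf3 and Dusp1, 7 of the 10 genes. Egr1, Ier2 and Myc were not matched. Each sequence gives the 250 bases before the annotated start, 5' to 3' on the gene's strand, and none of these 3 windows overlaps a GENCODE exon. Capitals mark matches on either strand to TGACGT, to TGACATCA, to TATAAA, to TGACGTCA (which contains TGACGT), to TGACTCA or to the serum response factor motif known as the CArG box.
Fos promoter, chr12:85473640-85473889, plus strand: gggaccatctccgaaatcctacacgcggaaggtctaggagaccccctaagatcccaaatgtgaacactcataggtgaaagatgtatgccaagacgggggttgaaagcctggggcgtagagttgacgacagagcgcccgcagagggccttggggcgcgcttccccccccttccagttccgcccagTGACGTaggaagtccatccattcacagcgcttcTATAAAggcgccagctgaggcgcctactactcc
Jun promoter, chr4:95052223-95052472, minus strand: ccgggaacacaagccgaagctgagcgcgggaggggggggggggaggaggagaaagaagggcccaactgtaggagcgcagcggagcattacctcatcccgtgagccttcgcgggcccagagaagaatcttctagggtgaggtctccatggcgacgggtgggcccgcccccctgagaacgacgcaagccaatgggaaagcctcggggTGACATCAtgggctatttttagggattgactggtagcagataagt
Junb promoter, chr8:84978749-84978998, minus strand: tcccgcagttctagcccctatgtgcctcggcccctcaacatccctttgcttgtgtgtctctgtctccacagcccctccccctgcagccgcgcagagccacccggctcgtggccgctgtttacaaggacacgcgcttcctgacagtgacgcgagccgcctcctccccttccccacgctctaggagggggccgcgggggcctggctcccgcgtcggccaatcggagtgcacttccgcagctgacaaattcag

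The Fos window held TGACGT at 66 to 61 bases before the start, the core of the cyclic AMP response element, and TATAAA at 33 to 28 bases before it. The Jun window held TGACATCA, a sequence known as a site of Jun and ATF proteins, and the Junb window held none of the 6 motifs. The full palindrome TGACGTCA was found only in the Dusp1 window among the 7 genes, 143 to 136 bases before the start, and CArG boxes only in windows of Egr2. The search covered only the 250 bases before the start, so a motif further upstream would not be seen. Egr1, Ier2 and Myc had no window to search. A gene was counted when any of its windows held the motif. Egr2 had 5 windows, several of them overlapping, and the other 6 genes 1 each. TGACGT occurred in 4 of the 7 genes and in 7.29% of all 27025 genes with a window. TGACGTCA, TGACATCA, TATAAA and the CArG box each occurred in 1 of the 7, and in 1.77%, 3.41%, 14.3% and 1.62% of all genes. TGACTCA, the AP-1 site, occurred in 0 of the 7 and in 5.16% of all genes. These are letter matches and not measured binding sites.

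Before the results, the libraries are described in ranges. The TPM of the libraries summed to between 913497 and 921705, and between 10809 and 10959 genes reached 1 TPM. Read depth is unknown. Ndufa4 knockout replicate 3 stood apart, at 40.4 on the first principal component against -11.4 to 4.56 in the other 8 libraries, and its deviations from its genotype mean had a rank correlation with transcript length of -0.31 across genes. The targeted gene Ndufa4l3, listed as AA467197, was at 360 ± 5.24 TPM in wild type and 3.21 ± 1.18 TPM in its knockout (SD, n = 3). Ndufa4 was listed at or near 0 in every genotype, so it checks nothing about the labels. All 8 macrophage markers analysed passed the filter and summed to 8610 to 9960 TPM, mostly Lyz2 with a mean of 4700 TPM, and Adgre1 was not analysed here. Markers of T and NK cells and of B cells stayed below 0.8 TPM in sum. The 5 fibroblast markers summed to between 6.16 and 130 TPM and the 5 neutrophil markers to between 1.30 and 65.1 TPM, each varying within genotypes.

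In wild type the members covered a wide range of levels on the length-normalised TPM scale. Atf3, which encodes a stress-induced repressor of the ATF family, was highest at 139 ± 5.88 TPM (SD, n = 3). Junb at 89.1 ± 7.02 TPM and Jun at 80.4 ± 1.60 TPM followed, and their libraries overlapped, so their order was not resolved. Fos at 28.2 ± 1.17, Myc at 21.8 ± 0.461, Ier2 at 14.9 ± 1.28 and Dusp1 at 9.61 ± 0.610 TPM came next, with no overlap between neighbours. Egr1 at 2.09 ± 0.948 TPM and Egr2 at 1.09 ± 0.302 TPM overlapped. Fosb was listed at 0 in each of the 3 wild-type libraries, at 0.494, 0.258 and 0.0910 TPM in the 3 libraries of the Ndufa4l3-miR147 knockout, and at 0.000193, 0.209 and 0.152 TPM in those of the Ndufa4 knockout. No fold is given for it. Abundance from cell number and from RNA per cell cannot be told apart in these bulk libraries.

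In both knockouts the genotype means kept this order. Junb and Jun overlapped again in the Ndufa4l3-miR147 knockout, but not in the Ndufa4 knockout, where Junb lay at 102 to 122 TPM and Jun at 91.8 to 97.4 TPM. The libraries of Atf3 did not overlap with those of Junb in any genotype.

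**Figure D1:**
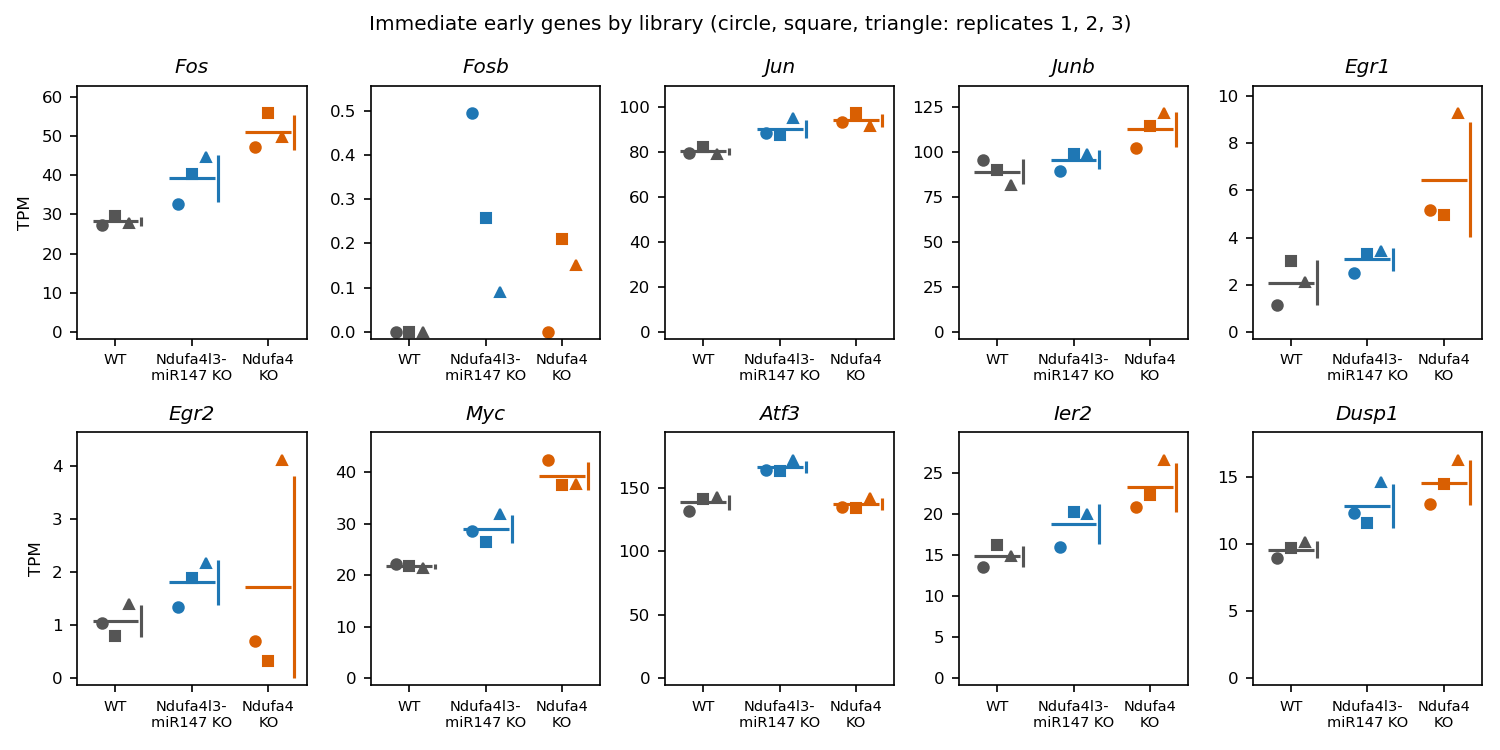
TPM of each of the 10 immediate early genes (vertical axis, linear, near 0 at the base) in the 9 libraries by genotype; symbols mark replicates, horizontal lines the mean and vertical lines the SD (n = 3, cut at 0), both left out for Fosb. Fos and Myc step up from wild type to the Ndufa4l3-miR147 knockout to the Ndufa4 knockout without overlap, while Atf3 is highest in the Ndufa4l3-miR147 knockout, at 164 to 172 TPM.

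In the Ndufa4 knockout, compared with wild type after interferon-gamma, most members were higher. Of the 9 members tested, 7 rose: Fos, Myc, Egr1, Ier2, Dusp1, Junb and Jun. Atf3 and Egr2 did not pass the test, and 0 fell. Calls are at an adjusted p under 0.05 in limma over all 11133 genes kept, of which 2.83% rose. The libraries of both genotypes did not overlap for the same 7 members, as for 9.40% of all genes kept in that direction. The median change of the 9 members was 0.55 on the log2(TPM + 1) scale, and that of all genes kept was -0.08.

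Fos, the AP-1 subunit that cannot form dimers with itself and depends on Jun proteins (chromosome 12, 85473890 to 85477273, plus strand, GRCm38), measured 27.3, 29.5 and 27.7 TPM in the wild-type libraries, replicates 1 to 3. It was at 47.2, 55.7 and 49.6 TPM in the Ndufa4 knockout. Every knockout library lay well above every wild-type library, and the mean was 1.81 times as high. The change was 0.83 ± 0.11 (estimate ± SE; limma adjusted p = 0.0037).

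Jun, the central AP-1 subunit (chromosome 4, 95049034 to 95052222, minus strand), was at 79.7, 82.2 and 79.2 TPM in wild type and at 93.6, 97.4 and 91.8 TPM in the Ndufa4 knockout. The groups did not overlap, but the step was small, at 0.23 ± 0.05 (limma adjusted p = 0.029). Junb, a Jun protein that often restrains Jun activity (chromosome 8, 84974484 to 84978718, minus strand), was at 95.4, 90.3 and 81.5 TPM in wild type and at 102, 114 and 122 TPM in the knockout. Its lowest knockout library was close to its highest wild-type library, and the change was 0.34 ± 0.08 (limma adjusted p = 0.039). Both calls were among the least stable: Jun was called in 10 and Junb in 7 of 19 alternative analyses, with limma adjusted p of up to 0.11 and 0.14.

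Because Fos moved further than Jun, their proportion differed between genotypes. The ratio of Fos to Jun TPM within a library was 0.343, 0.359 and 0.350 in wild type. It was 0.505, 0.573 and 0.541 in the Ndufa4 knockout and 0.369, 0.460 and 0.468 in the Ndufa4l3-miR147 knockout. The 3 genotypes did not overlap in this ratio, which is free of the scaling of a library. The ratio of Junb to Jun overlapped between all genotypes, at 1.03 to 1.20 in wild type, 1.01 to 1.12 in the Ndufa4l3-miR147 knockout and 1.09 to 1.32 in the Ndufa4 knockout. The ratios were not tested.

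**Figure D2:**
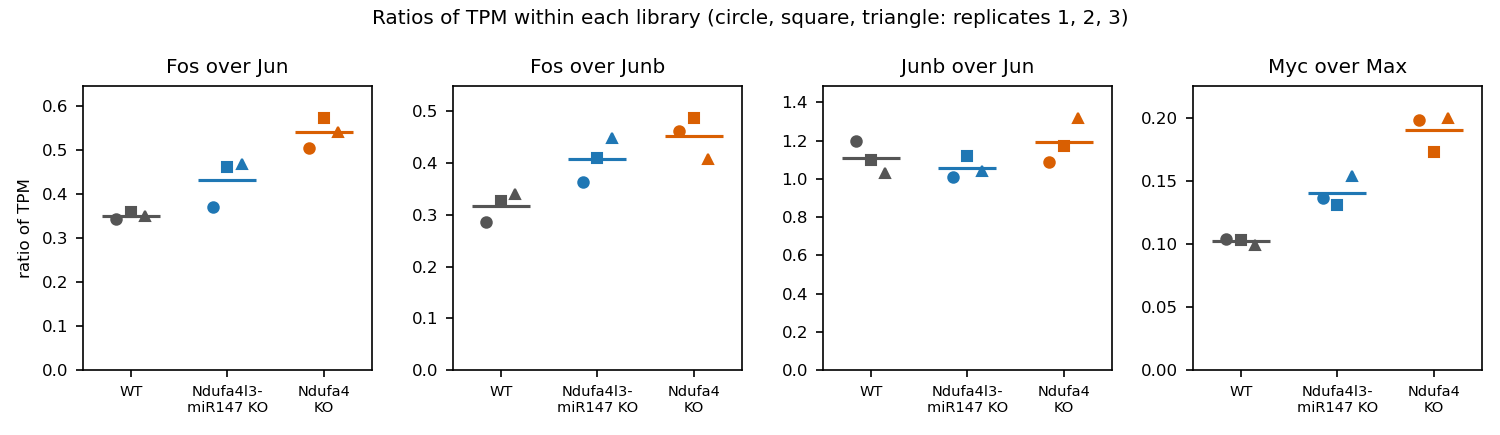
Ratios of TPM within each library (vertical axes, linear from 0) for Fos over Jun, Fos over Junb, Junb over Jun and Myc over Max, by genotype; symbols mark replicates and lines the mean of 3 libraries. Fos over Jun runs from 0.343 to 0.359 in wild type and from 0.505 to 0.573 in the Ndufa4 knockout, while Junb over Jun overlaps between genotypes.

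Myc (chromosome 15, 61985391 to 61990374, plus strand) was at 22.3, 21.7 and 21.3 TPM in wild type and at 42.4, 37.6 and 37.7 TPM in the Ndufa4 knockout. The wild-type libraries were tightly grouped and all 3 knockout libraries lay far above them. The change of 0.82 ± 0.08 had the smallest adjusted p of the members (limma adjusted p = 9.9e-04). Fos and Myc kept their calls in each of the 19 alternative analyses, with limma adjusted p of at most 0.025 and 0.0098.

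Egr1, a zinc finger activator induced by growth factors (chromosome 18), showed the largest estimate on low levels. It was at 1.13, 3.02 and 2.11 TPM in wild type and at 5.17, 4.94 and 9.27 TPM in the Ndufa4 knockout. All knockout libraries exceeded all wild-type libraries, with replicate 3 far above the other two. The change was 1.27 ± 0.27 (limma adjusted p = 0.023), and it was called in 14 of 18 alternatives. The call was lost when wild-type replicate 1 (limma adjusted p = 0.082) or replicate 3 (0.075) was left out, without the filter on low values (0.067) and in a fit to these 6 libraries alone (0.082). Egr2, a related factor of macrophage differentiation (chromosome 10, 67535475 to 67542188, plus strand), was at 1.05, 0.806 and 1.41 TPM in wild type and at 0.700, 0.330 and 4.12 TPM in the Ndufa4 knockout. Its knockout libraries lay on both sides of wild type. The difference of 0.13 ± 0.43 (95% confidence interval -0.84 to 1.10) did not pass the test, and it was -0.46 without Ndufa4 knockout replicate 3. Of the members kept, genotype accounted for the smallest share of the variance of log2(TPM + 1) in Egr2, 11.1%, and for the largest in Myc, 94.9%.

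Ier2, a short-lived nuclear protein (chromosome 8, 84661331 to 84662852, minus strand), was at 13.6, 16.2 and 14.9 TPM in wild type and at 20.8, 22.4 and 26.6 TPM in the Ndufa4 knockout. Dusp1, the phosphatase that inactivates p38, JNK and ERK kinases (chromosome 17, 26505590 to 26562128, minus strand), was at 8.95, 9.70 and 10.2 TPM in wild type and at 13.0, 14.5 and 16.3 TPM in the knockout. In both genes the groups were apart and replicate 3 was the highest knockout library. The changes were 0.61 ± 0.12 for Ier2 and 0.55 ± 0.11 for Dusp1 (limma adjusted p = 0.018 and 0.020). Each was called in 15 of 19 alternatives, with limma adjusted p of up to 0.082 and 0.087. Atf3 (chromosome 1, 191170296 to 191218039, minus strand) was at 132, 142 and 143 TPM in wild type and at 135, 135 and 142 TPM in the Ndufa4 knockout. These groups overlapped, and the difference was -0.02 ± 0.05 (95% confidence interval -0.13 to 0.10).

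The number of members that rose depended on the libraries fitted. It was 6 with Ndufa4 knockout replicate 3 left out and 5 with replicate 2 left out. Leaving out a wild-type library gave 2 (replicate 1), 3 (replicate 2) and 2 (replicate 3), and leaving out replicate 1, 2 or 3 of the Ndufa4l3-miR147 knockout gave 5, 5 and 6. A fit to these 6 libraries alone gave 2. All genes called in this comparison also varied, from 266 to 1586 with 1 library left out. They were 1586 without Ndufa4 knockout replicate 3.

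Some markers of macrophages and dendritic cells also moved in the Ndufa4 knockout, while 0 of the 4 fibroblast markers tested were called there. Fibroblast markers summed to 7.09, 44.3 and 44.1 TPM in wild-type replicates 1 to 3 and to 36.0, 6.16 and 130 TPM in those of the Ndufa4 knockout. Col3a1 alone was at 29.3, 2.12 and 116 TPM in the Ndufa4 knockout. In replicate 3 of this knockout, which had its highest fibroblast sum, 6 of the 9 members were at their highest of the genotype. These were Junb, Egr1, Egr2, Atf3, Ier2 and Dusp1. That library also stood apart on the first principal component, and its deviations were correlated with transcript length. No share of all genes stands beside this count. Egr1, Egr2 and Atf3 followed the order of the fibroblast sum in all 3 libraries. Fos and Jun were highest in replicate 2 and Myc in replicate 1. In the Ndufa4l3-miR147 knockout the fibroblast sum was highest in replicate 1, at 45 TPM, where 0 members were at their highest of the genotype. The summed macrophage markers lay between 9480 and 9960 TPM in the Ndufa4 knockout, above the wild-type range of 8980 to 9110 TPM. Of these 8 markers 1 was called higher and 2 lower, beside 2.83% and 5.76% of all genes kept. Lyz2 rose by 0.24 ± 0.04 (limma adjusted p = 0.011), while Cd14 changed by -0.84 ± 0.06 (3.3e-04) and Mertk by -0.51 ± 0.13 (0.049). The mean of Lyz2, the most abundant, went from 4580 TPM in wild type to 5410 TPM. Estimates were positive for 2 of the 8 and negative for 6, with a median of -0.08 beside -0.08 for all genes kept. The 4 dendritic cell markers, of which 2 passed the filter, summed to 27.2 to 29.2 TPM in wild type, 29.8 to 34.7 TPM in Ndufa4l3-miR147 knockout libraries and 40.3 to 76.4 TPM in the Ndufa4 knockout. Nearly all of this was Clec9a, at 73.4, 53.5 and 38.7 TPM in replicates 1 to 3 of the Ndufa4 knockout, and Xcr1 followed that order at 2.83, 1.69 and 1.45 TPM, with 1.25 to 1.77 TPM in wild type. The defining markers Flt3 and Zbtb46 had means of 0.0453 and 0.169 TPM over all libraries. The part of other cell types in the rise of the members was not tested.

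The comparison of the Ndufa4l3-miR147 knockout with wild type gave positive estimates for all 9 members tested, but 0 were called by limma, beside 0.243% of genes kept that rose. At an unadjusted p under 0.05 there were 6 of the 9, beside 8.24% of all genes kept. The libraries did not overlap for 5 members, Fos, Jun, Myc, Atf3 and Dusp1, beside 11.9% of all genes kept in that direction. The median of the 9 was 0.38 and that of all genes kept 0.001. Both comparisons share the wild-type libraries.

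Atf3 came closest to a call. It was at 164, 164 and 172 TPM in Ndufa4l3-miR147 knockout libraries against 132 to 143 TPM in wild type, a difference of 0.26 ± 0.05 (limma adjusted p = 0.087). All 3 knockout libraries exceeded all wild-type libraries. Myc was at 28.6, 26.4 and 31.9 TPM against 21.3 to 22.3 TPM, a difference of 0.39 ± 0.08 (limma adjusted p = 0.11). Both genes were called higher without Ndufa4 knockout replicate 3 (limma adjusted p = 0.022 for Atf3 and 0.044 for Myc) and in a fit to these 6 libraries alone (0.022 and 0.035). That library belongs to neither genotype compared and enters through the shared estimate of the spread.

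Fos was at 32.7, 40.4 and 44.5 TPM in Ndufa4l3-miR147 knockout libraries, each above the wild-type maximum of 29.5 TPM. Its difference was 0.45 ± 0.11 (limma adjusted p = 0.19), with a 95% confidence interval of 0.20 to 0.70. Dusp1 was at 12.3, 11.6 and 14.7 TPM and Jun at 88.6, 87.8 and 95.2 TPM, with differences of 0.38 ± 0.11 and 0.17 ± 0.05 (limma adjusted p = 0.31 and 0.34). Junb, Egr1, Egr2 and Ier2 overlapped with wild type. Ier2 at 16.0, 20.3 and 20.1 TPM did so by 1 library, and Egr1 was at 2.52, 3.29 and 3.45 TPM. Replicate 3 of this knockout was the highest of its genotype for 8 of the 9 members, and replicate 1 for 0. These counts have no share of all genes beside them, so a shift of the whole library cannot be told apart.

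The Ndufa4l3-miR147 knockout was also compared with the Ndufa4 knockout. Myc was lower by -0.43 ± 0.08 (limma adjusted p = 0.026) and Atf3 was higher by 0.28 ± 0.05 (limma adjusted p = 0.023) in the Ndufa4l3-miR147 knockout. These were the only 2 of 9 members called, 1 in each direction, beside 1.04% of genes kept that were lower and 2.20% that were higher. The libraries of Fos, Junb, Egr1, Myc and Ier2, 5 members, were lower in the Ndufa4l3-miR147 knockout without overlap, as were 6.98% of genes kept. Fos differed by -0.38 ± 0.11 (limma adjusted p = 0.11) and Jun by -0.06 ± 0.05 (95% confidence interval -0.17 to 0.06).

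Each call was kept in 11 of 19 alternatives. That of Myc was lost when any 1 wild-type library, or replicate 1 or 2 of the Ndufa4l3-miR147 knockout, was left out (limma adjusted p from 0.056 to 0.11). The Myc call was also lost with the replicate block, without the filter on low values (limma adjusted p = 0.050) and in a fit to these 6 libraries alone (0.13). That of Atf3 was lost without wild-type replicate 2 or any 1 Ndufa4l3-miR147 knockout library (limma adjusted p from 0.056 to 0.11), with median-of-ratios scaling (0.14), with the transcript length trend removed (0.19), without the intensity trend (0.054) and in the fit to 6 libraries (0.11). Without Ndufa4 knockout replicate 3, Egr2 was called higher in the Ndufa4l3-miR147 knockout, by 0.89.

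**Figure D3:**
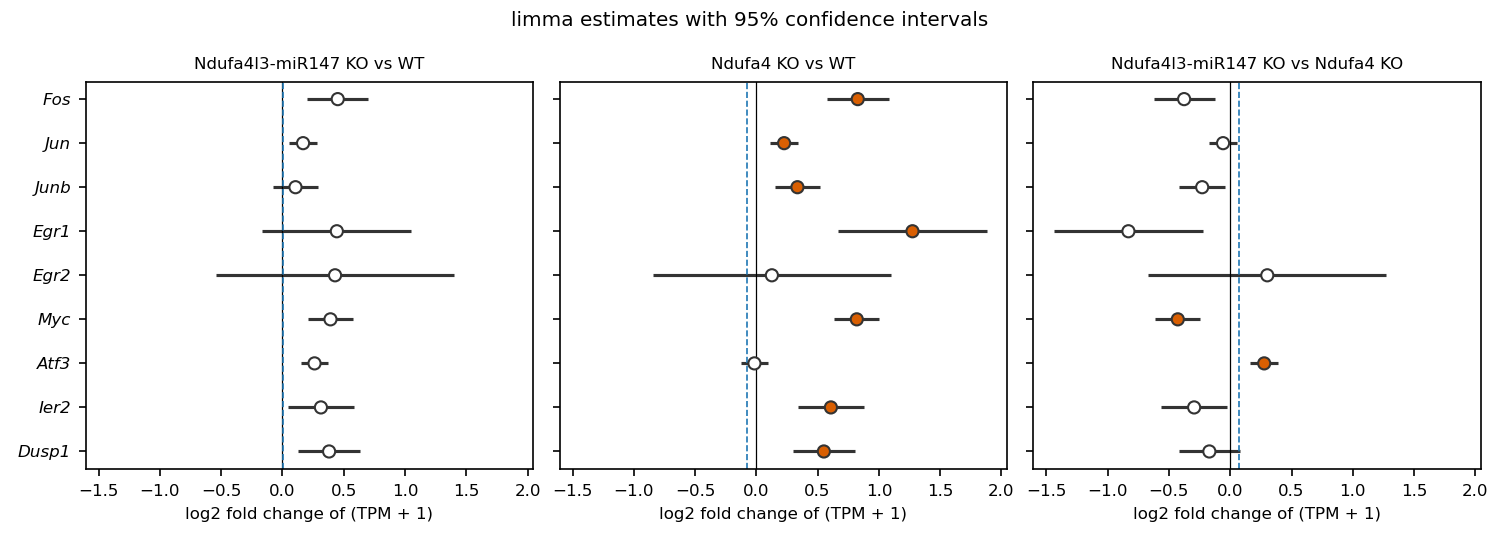
Log2 fold change of (TPM + 1) for the 9 members tested (horizontal axis) in the 3 comparisons; points are limma estimates, bars the 95% confidence intervals, filled points the genes called and dashed lines the median of all genes kept. In the Ndufa4 knockout against wild type 7 members are called higher, and Atf3 lies at -0.02.

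Across genotypes, 2 of the 9 members, Fos and Myc, were ordered from wild type through the Ndufa4l3-miR147 knockout to the Ndufa4 knockout with no overlap between neighbouring genotypes, as were 1.14% of genes kept. The genotype means followed that order for 7 members and for 16.4% of genes kept. The exceptions were Atf3 and Egr2. Over the 9 libraries, which share genotype and library differences, 33 of the 36 pairs of members had a positive Pearson correlation of log2(TPM + 1), with a median of 0.77. Egr1 with Ier2 gave 0.95 and Fos with Jun 0.94. Atf3 gave 0.47 with Egr2 and -0.20 to 0.26 with the other 7 members, and held all 3 negative pairs, with Junb, Myc and Egr1. Egr2 gave 0.03 to 0.39 with the members other than Atf3.

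Among 8802 genes with a mean of at least 5 TPM, likeness to the members' mean standardized profile over the 9 libraries was ranked. The members, the genes of the lists below and the cell markers were left out of this ranking, but kept in those for single members. The genes most like that mean profile come first. They were Pfkl, the liver-type phosphofructokinase of glycolysis (r = 0.99), Adssl1, an enzyme of AMP synthesis (0.98), Slc3a2, the heavy chain of amino acid transporters (0.98), Hmga1, a chromatin architecture protein (0.98), and Mif, a macrophage cytokine (0.98). Pfkl had means of 64.9, 80.5 and 88.1 TPM in wild type, the Ndufa4l3-miR147 knockout and the Ndufa4 knockout. The single gene most like Myc was Nek6, a mitotic kinase (0.99), the one most like Fos was Ddx27, a helicase of ribosome assembly (0.97), and the one most like Atf3 was Pmp22, a membrane protein (0.98), which was likewise highest in the Ndufa4l3-miR147 knockout, at 269 TPM.

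Genes that act around the members were taken from 7 lists, also chosen with earlier results of these data known. Of 31 MAP kinase cascade genes and serum response factor partners tested, 1 rose and 4 fell in the Ndufa4 knockout against wild type, beside 2.83% and 5.76% of all genes kept. Map2k3, a kinase that activates p38, rose by 0.21 ± 0.05, and Rps6ka1, a kinase activated by ERK, changed by -0.20 ± 0.05 (limma adjusted p = 0.038 and 0.039), with calls kept in 8 and 5 of 19 alternatives. Map2k6, another kinase that activates p38, and Mkl1 (also Mrtfa), a coactivator of serum response factor, also fell and were named after their values were seen. The median of the list was -0.13. With median-of-ratios scaling, quantile normalization or the length trend removed, 1, 0 and 1 of its genes fell. None was called in the Ndufa4l3-miR147 knockout against wild type or between the knockouts.

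Among feedback regulators, Dusp6, the ERK-specific phosphatase, fell in the Ndufa4 knockout by -0.54 ± 0.08, from 34.9 to 36.2 TPM in wild type to 21.8 to 26.6 TPM (limma adjusted p = 0.0054), while Dusp1 rose. Dusp6 was the only 1 of 10 MAP kinase phosphatases and Sprouty proteins called there, beside 2.83% of all genes kept that rose and 5.76% that fell. It kept its call in each of the 19 alternatives. It was higher in the Ndufa4l3-miR147 knockout than in the Ndufa4 knockout by 0.60 ± 0.08 (limma adjusted p = 0.0059, called in 18 of 19 alternatives). Of these 10 it was the only 1 called between the knockouts, beside 2.20% of all genes kept that were higher. Of 3 Egr and Nab proteins tested, 1 rose in the Ndufa4 knockout, beside 2.83% of all genes kept. This was Nab2, a corepressor that Egr1 induces, by 0.28 ± 0.07 (limma adjusted p = 0.046), a call kept in 8 of 19 alternatives.

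Of 11 other AP-1 and small Maf proteins, 1 rose and 1 fell in the Ndufa4 knockout, beside 2.83% and 5.76% of all genes kept. Maff, a small Maf protein without an activation domain, rose by 0.64 ± 0.10, from 5.22 to 6.06 TPM in wild type to 8.03 to 10.3 TPM (limma adjusted p = 0.0083). Its relative Mafk changed by -0.25 ± 0.06 (limma adjusted p = 0.031), a call kept in 9 of 19 alternatives and lost with median-of-ratios scaling and quantile normalization. Batf3, an AP-1 factor of dendritic cell development, was lower in the Ndufa4l3-miR147 knockout than in the Ndufa4 knockout by -0.61 ± 0.13 (limma adjusted p = 0.038), a call kept in 8 of 19 alternatives. It was the only 1 of the 11 called between the knockouts, beside 1.04% of genes kept that were lower and 2.20% higher.

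Of 30 other early response genes tested, 3 rose and 1 fell in the Ndufa4 knockout, beside 2.83% and 5.76% of all genes kept. Their median was -0.01 beside -0.08 for all genes kept, and it was 0.06, 0.09 and 0.05 with median-of-ratios scaling, quantile normalization and the length trend removed. Trib1, a pseudokinase scaffold, rose by 0.88 ± 0.10 from 3.46 to 3.87 TPM in wild type to 6.64 to 8.60 TPM (limma adjusted p = 0.0022), and Gadd45g, a stress sensor, by 0.43 ± 0.10 (0.033). Zfp36, which binds AU-rich elements and speeds decay of their transcripts, was the other that rose (0.30 ± 0.08, limma adjusted p = 0.048) and was named after its value was seen. Btg2, an antiproliferative gene, changed by -0.33 ± 0.08 (limma adjusted p = 0.037), a call lost with those 3 settings. The calls of Trib1, Gadd45g, Zfp36 and Btg2 were kept in 19, 10, 8 and 7 of 19 alternatives. Plk2, a kinase, was the only gene of these 30 called in the Ndufa4l3-miR147 knockout against wild type, beside 0.243% of genes kept that rose. It changed by 0.47 ± 0.07 (limma adjusted p = 0.026) and was at 63.2 to 66.2 TPM in that knockout. The Ndufa4 knockout had 43.8 to 50.1 TPM, and the knockouts differed by 0.44 ± 0.07 (limma adjusted p = 0.013). Rhob, a small GTPase, was likewise higher in the Ndufa4l3-miR147 knockout than in the Ndufa4 knockout (0.41 ± 0.07, limma adjusted p = 0.017), and Trib1 lower (-0.59 ± 0.10, limma adjusted p = 0.020). Of these 30 genes, 2 were higher and 1 lower between these knockouts, beside 2.20% and 1.04% of all genes kept. Plk2 kept its call in 11 of 19 alternatives against wild type, and between the knockouts Plk2, Rhob and Trib1 kept theirs in 15, 12 and 13.

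Of 8 genes of the Myc network tested in the Ndufa4 knockout against wild type, 0 rose and 2 fell, beside 2.83% and 5.76% of all genes kept. Those that fell were the antagonists Mxd4 (-0.38 ± 0.09, limma adjusted p = 0.034) and Mxd1 (-0.37 ± 0.10, limma adjusted p = 0.048), and the median was -0.33. With median-of-ratios scaling, quantile normalization or the length trend removed 0 of these were called, and the median was -0.26, -0.20 and -0.25. Max, the obligate partner of Myc, was at 214 ± 2.57 TPM in wild type and 206 ± 15.8 TPM in the Ndufa4 knockout, so the ratio of Myc to Max TPM went from 0.099 to 0.104 in wild type to 0.173 to 0.200, with the Ndufa4l3-miR147 knockout at 0.131 to 0.154.

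Of 14 known Myc targets 6 rose and 0 fell in the Ndufa4 knockout, beside 2.83% of all genes kept that rose, and the median was 0.20. Odc1, the first enzyme of polyamine synthesis, rose by 0.49 ± 0.05, from 65.4 to 69.5 TPM in wild type to 93.9 to 96.5 TPM (limma adjusted p = 9.3e-04), and Srm, spermidine synthase, by 0.50 ± 0.07 (limma adjusted p = 0.0048). The other 4 that rose, Nop58, Nop56, Ncl and Ldha, were named after their values were seen. Without wild-type replicate 1, 2 or 3 there were 3 that rose. Odc1 was also the only target called in the Ndufa4l3-miR147 knockout against wild type, beside 0.243% of genes kept that rose. It changed by 0.29 ± 0.05 (limma adjusted p = 0.038), a call kept in 9 of 19 alternatives. The call was lost with median-of-ratios scaling and without the intensity trend. None of the targets was called between the knockouts.

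**Figure D4:**
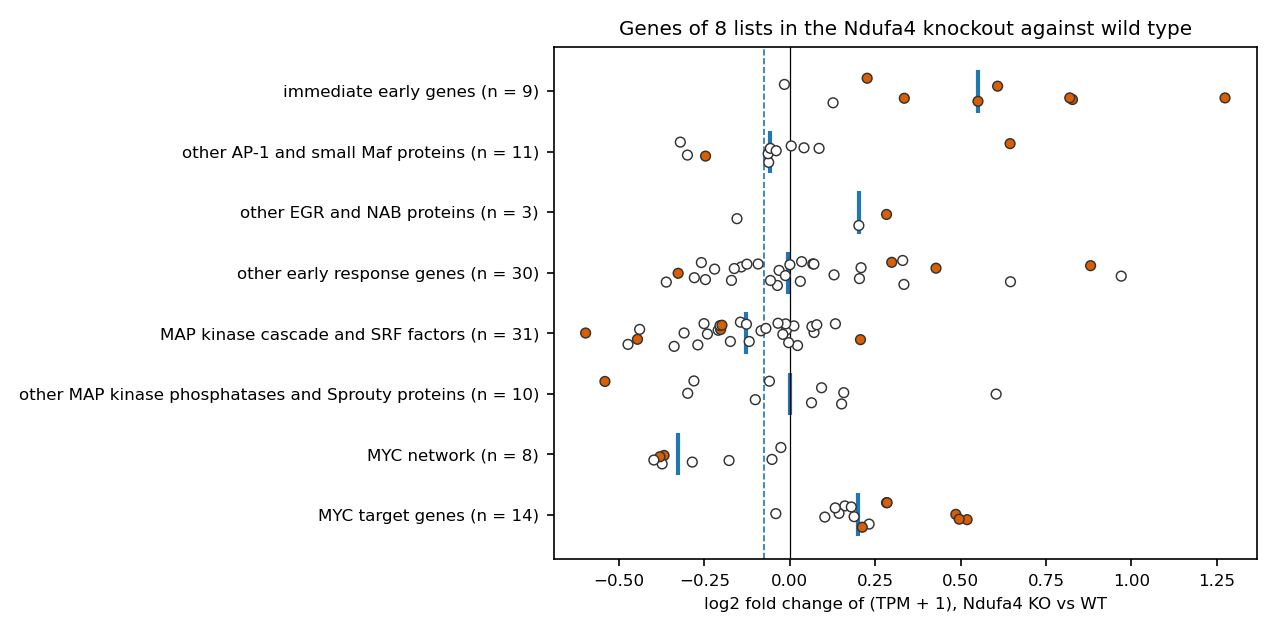
Log2 fold change of (TPM + 1) in the Ndufa4 knockout against wild type (horizontal axis) for each gene tested in the 8 lists; filled points were called by limma, short vertical bars mark each list's median and the dashed line the median of all genes kept, -0.08 (the vertical spread within a list has no meaning). The members and the Myc targets lie mostly to the right, the Myc network lies to the left, and the other early response genes spread around 0.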

How the data were processed

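The submitters' processing notes name kallisto, DESeq2 and edgeR, and the builds mm10 and GRCm39, without role or version. How transcripts became genes, and with which annotation release, is not given in the sources used here. Values were TPM: the authors deposited 1 table of TPM, used here as deposited. Its 1 line with no gene name held 0.0025% to 0.003% of each library and was dropped. TPM keep no read depth, so no counting interval is given, and as shares of a fixed total they fall when abundant genes rise.

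After log2(TPM + 1) transformation, the 11133 genes reaching 1 TPM in 3 or more libraries entered a limma model (version 3.58.1, R 4.3.3) of all 9 libraries with a mean for each genotype and an intensity trend. Tests were two-sided, with Benjamini-Hochberg adjustment over all genes kept, and were tested on simulated data. Transcript features came from GENCODE M21, promoter windows from RefSeq (GRCm38.p6). Of 171 listed genes 169 were found, 4 by an older symbol. All members were named, and from each list up to 2 called genes per direction and comparison, by smallest adjusted p. A called gene of the lists is not reported here. The members and lists were chosen with earlier results of these data known. The 19 alternatives changed the pseudocount, filter, scaling, libraries fitted, trend, replicate block or length correction, or left out 1 library.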

Additional observations from a re-analysis of the deposited data

How the results depend on the processing

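Of 507 values of single members under the alternatives, 446 kept their direction and side of the threshold, 49 lost a call, 5 gained one and 7 changed sign. The sign changes were all in genes not called. Atf3 in the Ndufa4 knockout against wild type was at 0.058 with median-of-ratios scaling, 0.0015 with quantile normalization, 0.077 with the length trend removed and -0.051 to 0.0054 with 1 library left out. Egr2 in that comparison was at -0.036 with a pseudocount of 0.1 and at -0.46 to 0.51 with 1 library left out, and between the knockouts it was at -0.081 to 0.89. When only the 6 libraries compared were fitted, the members called were 2 in the Ndufa4l3-miR147 knockout, 2 in the Ndufa4 knockout and 0 between the knockouts, and all genes called were 306, 238 and 64. The 2 members called between the knockouts became 1 without the filter on low values, with median-of-ratios scaling, without the intensity trend, with the replicate block and with the length trend removed. All genes called in the Ndufa4l3-miR147 knockout were 48, and 30 without the intensity trend. With 1 library left out the members called were 0 to 2, 2 to 7 and 0 to 3 in the 3 comparisons, and all genes called 13 to 198, 266 to 1586 and 82 to 740, each highest without Ndufa4 knockout replicate 3 except the members in the Ndufa4 knockout, then 6. The cause was not tested, beside the smaller number of libraries fitted. Deviations of same-numbered libraries correlated at -0.14 to 0.18 and those of different-numbered libraries at -0.16 to 0.13. Of the 9 libraries 3 were closest to their own number. With 3 libraries per genotype, whether same-numbered libraries shared a preparation cannot be told from these values. With the replicate block 5 members rose in the Ndufa4 knockout, Jun and Junb losing their calls (limma adjusted p = 0.067 and 0.077), and Myc was no longer called between the knockouts (0.062), and all genes called were 24 in the Ndufa4l3-miR147 knockout and 162 between the knockouts. The depth of the libraries is unknown, so the precision of the low values of Egr1, Egr2 and Fosb cannot be judged.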
